A study of Mus musculus with 14 samples.

Results

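Distal chromatin regions that opened at 16 to 24 h after GATA6 induction numbered 4535 of 121891 accessible regions, or 3.72%, on the autosomes of mouse ES cells. They were chosen from peak calls alone. Peaks of all 14 ATAC-seq libraries that overlapped by 1 bp or more were merged into regions, and a region was called in a library when any peak of that library touched it. A member had its midpoint over 1 kb from every protein-coding transcription start site (TSS), was called in neither 0 h library and in both 48 h libraries, and was first called in both libraries of a time point at 16 h or at 24 h. Peak calls in all 14 libraries therefore fixed when these regions opened, and the calls are given below as a description.

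ATAC-seq marks DNA that a transposase can reach. The cells were KH2, a mouse ES cell line of C57BL/6 strain per the labels, whose transgene TRE:GATA6-DSREd2 places GATA6 under doxycycline (Dox) control, and each library was made from 50000 cells. The 2 libraries of 0 h came from 2i cultures without Dox, 2 libraries each at 2, 4 and 8 h from cells moved to serum medium with 1 µg/mL Dox until harvest, and 2 libraries each at 16, 24 and 48 h from cells given Dox for 12 h in serum medium and then kept in serum medium without it. Medium and Dox changed together, no library came from serum without Dox, all libraries shared 1 transgenic line, and the labels do not tie the replicates to separate cultures, although the study's reporting summary calls its replicate experiments independent. In such a bulk profile, opening in more cells and wider opening in each cell cannot be told apart, and peak lists carry no expression by which cell identity could be checked.

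GATA6 is a zinc finger transcription factor that specifies primitive endoderm (PrE), the extraembryonic lineage that forms beside the pluripotent epiblast (Epi) and gives rise to the visceral and parietal endoderm of the yolk sacs. GATA factors bind short sites with a GATA core and can open closed chromatin. Later steps of endoderm formation rely on further factors, among them SOX17 and the forkhead factor FOXA2, and homeodomain proteins of the HNF1 family bind as dimers to a palindromic site.

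Words bound by several factor families differed in frequency between the members and regions that opened earlier, among them GATA words and the site of HNF1 factors. Groups of 200 bp windows around the centres of members are shown because the results below turn on them, all read from the + strand of GRCm38. Capitals mark GATA words (AGATAA, also with T as its first or G as its last letter, on either strand) and HNF1 sites (GTTAAT, 1 free base and ATTAAC, with at most 2 mismatches among the 12 fixed bases). The first group holds members near the genes of endoderm or pluripotency factors that carry an HNF1 site. Those shown lie 44.1 kb downstream of a TSS of Foxa2 (chr2:148001791-148001990, intergenic) and 15.6 kb downstream of a TSS of Klf4 (chr4:55516025-55516224, intergenic). Both were first called at 24 h.
Foxa2 region: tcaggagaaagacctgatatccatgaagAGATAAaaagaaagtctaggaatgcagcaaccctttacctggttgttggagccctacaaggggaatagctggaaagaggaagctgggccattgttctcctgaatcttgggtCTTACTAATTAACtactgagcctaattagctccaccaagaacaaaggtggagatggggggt
Klf4 region: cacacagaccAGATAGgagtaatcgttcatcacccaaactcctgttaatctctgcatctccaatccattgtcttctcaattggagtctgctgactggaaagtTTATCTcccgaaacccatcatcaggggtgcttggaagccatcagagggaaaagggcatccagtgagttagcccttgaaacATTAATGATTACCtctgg
The second group holds members with an HNF1 site of at most 1 mismatch and with high-ranking peaks at 48 h, 30.6 kb downstream of a TSS of Zfp36l2 (chr17:84157278-84157477, intergenic, 2 sites) and in an intron of Notch1, 21.4 kb downstream of its TSS (chr2:26482287-26482486). Both HNF1 groups were picked after their sites and values were known.
Zfp36l2 region: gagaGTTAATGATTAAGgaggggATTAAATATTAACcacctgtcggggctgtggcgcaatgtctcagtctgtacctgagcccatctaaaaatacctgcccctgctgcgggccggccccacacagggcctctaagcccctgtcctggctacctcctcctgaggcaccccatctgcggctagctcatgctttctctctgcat
Notch1 region: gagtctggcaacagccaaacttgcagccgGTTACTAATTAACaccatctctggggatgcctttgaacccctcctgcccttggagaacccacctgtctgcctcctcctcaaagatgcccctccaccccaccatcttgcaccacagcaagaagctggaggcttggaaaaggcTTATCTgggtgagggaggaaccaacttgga
The third group shows GATA words in members near PrE genes and in members with the highest-ranking peaks of all. They lie upstream of Sox17 (chr1:4538326-4538525), Lama1 (chr17:67685471-67685670), Cxcr4 (chr1:128654402-128654601) and Prickle1 (chr15:93949137-93949336), all intergenic.
Sox17 region: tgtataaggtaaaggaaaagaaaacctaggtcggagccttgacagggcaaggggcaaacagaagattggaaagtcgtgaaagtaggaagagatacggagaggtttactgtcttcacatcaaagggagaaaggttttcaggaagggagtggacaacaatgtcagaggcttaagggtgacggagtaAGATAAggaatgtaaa
Lama1 region: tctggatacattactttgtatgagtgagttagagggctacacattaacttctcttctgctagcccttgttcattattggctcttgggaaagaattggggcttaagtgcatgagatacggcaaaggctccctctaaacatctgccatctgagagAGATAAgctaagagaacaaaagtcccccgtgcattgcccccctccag
Cxcr4 region: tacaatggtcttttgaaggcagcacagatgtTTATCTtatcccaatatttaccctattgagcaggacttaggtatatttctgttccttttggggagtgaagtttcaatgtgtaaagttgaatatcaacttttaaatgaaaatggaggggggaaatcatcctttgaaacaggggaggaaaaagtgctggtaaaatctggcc
Prickle1 region: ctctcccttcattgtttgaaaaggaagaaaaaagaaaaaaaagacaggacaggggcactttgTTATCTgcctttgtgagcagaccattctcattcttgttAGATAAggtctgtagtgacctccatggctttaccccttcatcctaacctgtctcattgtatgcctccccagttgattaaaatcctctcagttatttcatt
The last is a member in an intron of Dab2 (chr15:6375261-6375460) that ranked among the highest at 48 h and held neither a GATA word nor an HNF1 site in this window.
Dab2 region: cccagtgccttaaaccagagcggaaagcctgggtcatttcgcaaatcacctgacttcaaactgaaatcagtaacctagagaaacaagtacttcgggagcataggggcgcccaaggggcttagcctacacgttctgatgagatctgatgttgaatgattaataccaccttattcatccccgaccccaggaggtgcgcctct

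To follow the members over time, their calls were listed in each library. By the rule 0% were called in either 0 h library, and 1.70% and 2.34% were called in the 2 h libraries of replicates 1 and 2. The shares were 3.35% and 4.94% at 4 h and 12.3% and 10.2% at 8 h. They were 61.1% and 68.0% at 16 h, 94.6% and 95.1% at 24 h, and 100% in both 48 h libraries, again by the rule. Calls were thus rare until 4 h, somewhat more frequent at 8 h, and widespread from 16 h on. Over all merged regions, 13.3% were called in both 16 h libraries and neither 0 h library, 11.6% met this at 24 h and 14.5% at 48 h. These shares are the background of the contrasts that the rule itself used.

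By the first time point with both calls the members split into 2517 (55.5%) of 16 h and 2018 (44.5%) of 24 h. Of the 16 h members, 2152 (85.5%) were called again in both 24 h libraries, 264 were called in 1 and 101 in none, although all returned at 48 h. Of the 24 h members, 822 had been called in 1 library of 16 h and 1196 in neither. In all, 3329 members (73.4%) were called in no library of 2, 4 or 8 h, and 1020 (22.5%) were called in 1 of the 8 h libraries. The strictest pattern was a call in all 6 libraries of 16 to 48 h and in none before. By the rule only the 2517 members of 16 h could meet it, and 1418 of these did, or 31.3% of all members.

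**Figure D1:**
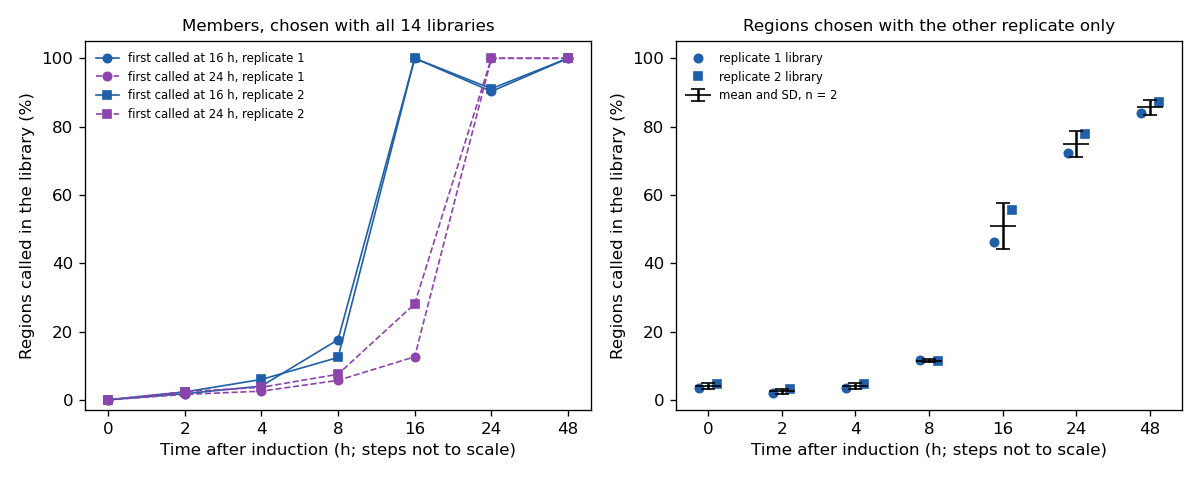
Percentage of regions called (y axis) in each library against time after induction (x axis, steps not to scale). Left, members by first time point and replicate, where the values at 0 h, at 48 h and at the first time point are set by the rule; right, regions chosen with the 7 libraries of 1 replicate number and scored in the libraries of the other, with mean and SD (n = 2), rising from 11.5% at 8 h to 85.6% at 48 h.

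The limits of the rule cut through a continuum. Just outside it in time, 1580 distal regions gained at 48 h had 8 h as their first time point with both calls, and 5923 had only 48 h, of which 1640 were already called in 1 library at 24 h. The limit of 1 kb had 19 members in the 100 bp beyond it, and 25 regions of the same timing in the 100 bp short of it were left out. Regions of the same timing that missed by 1 call were 1205 distal regions called in 1 rather than both 48 h libraries and 508 called in 1 of the 0 h libraries.

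To see whether the timing held in libraries that took no part in the choice, regions were chosen with the 7 libraries of 1 replicate number and scored in those of the other. Replicate 1 alone chose 5546 regions and replicate 2 alone 6020, of which 3461 were shared, or 62.4% and 57.5% of the respective choice. At 0, 2 and 4 h the held-out share called was 4.09% ± 0.873, 2.47% ± 0.816 and 4.00% ± 0.929 (mean ± SD of 2 libraries). At 8 h it was 11.5% ± 0.395, at 16 h 50.8% ± 6.70, then 75.0% ± 3.77 after 24 h and 85.6% ± 2.24 after 48 h (mean ± SD of 2 libraries). The lowest of the 6 late libraries, at 46.1%, exceeded the highest of the 8 earlier ones, at 11.8%, and the means differed by 65.0 percentage points (exact one-sided permutation test over libraries, p = 3.33e-04, the smallest that 3003 arrangements allow). The choice used the same time points in the other replicate, over regions merged from all 14 lists. The difference therefore shows how far the replicates concur, and is no separate evidence for the timing that the rule set. At 48 h neither held-out library reached 90%, since they called 84.0% and 87.2% of the regions that the other replicate had chosen. Within each replicate number the 16 h list was the longest (61857 and 65073 peaks, against 56981 and 58242 at 24 h), and the part this played in first calls at 16 h was not tested. The read totals tabulated by the study were also highest at that time point within each replicate number.

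The peaks over the members also climbed in rank. The deposited score of each peak was ranked within its own list, so that 100 is the highest-scoring peak, and the median was taken over the members called in each library. For members first called at 16 h the median percentile was 37.1 and 44.6 in the 16 h libraries, 53.3 and 54.5 at 24 h and 57.1 and 57.5 at 48 h. For members first called at 24 h it was 31.7 and 33.2 at 24 h and 52.3 and 53.5 at 48 h. Members thus entered the lists below the middle of the ranks and lay slightly above it at 48 h. Between 24 h and 48 h the peak ranked higher in 78.8% and 80.7% of the 24 h members in replicates 1 and 2, with a median gain of 17.7 and 19.5 percentile points. The rule left out regions called in both libraries of an earlier time point and required both 48 h calls. Low ranks at the first call and a later rise thus follow in part from the rule, and the rise was not tested.

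Distal regions that opened at 2 h went the other way, with a mean median percentile that passed from 79.0 ± 0.741 at 16 h through 69.4 ± 0.150 to 59.1 ± 0.887 at 48 h (SD, n = 2). The fall was not particular to them, since distal regions open in all 14 libraries passed from 74.8 ± 1.02 at 16 h to 64.6 ± 0.450 at 48 h (SD, n = 2). Regions first called only at 48 h stood at 34.3 ± 0.309 there, below the 55.3 ± 0.794 of the members (SD, n = 2). These scores come from the same peaks as the calls, so the order of the classes is given without a test.

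**Figure D2:**
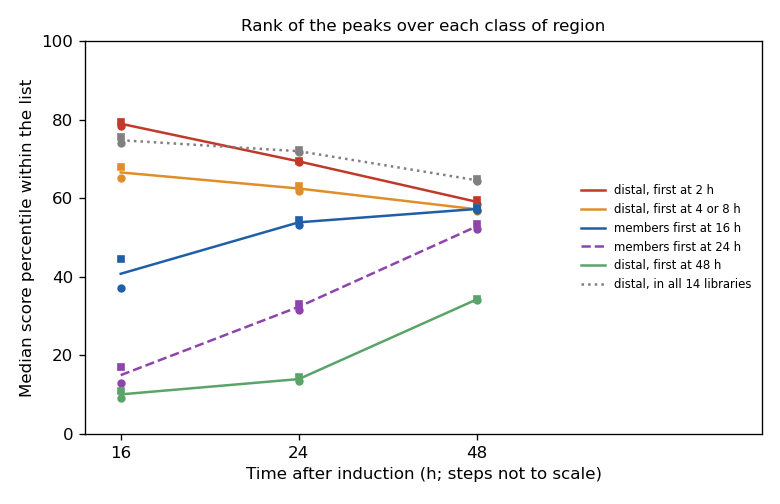
Median score percentile (y axis, rank within each list, 100 highest) of the peaks over each class of distal region in the 16, 24 and 48 h libraries (x axis, steps not to scale). Circles are replicate 1, squares replicate 2 and lines their mean. Both groups of members rise to medians between 52.3 and 57.5 at 48 h. Regions of 2 h, regions of 4 or 8 h and those open in all 14 libraries fall.

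To characterize what the members share beyond their timing, motif words were counted in the 200 bp around the centre of each region, a feature that no call had used. A GATA word was present in 2545 members (56.1%), against 39.5% of all 102157 distal regions and 27.7% of those open in all 14 libraries. A control in which the GATA letters were reordered (AAGTAA, with the same freedom at its first and last letter) was present in 23.4% of members and 22.8% of all distal regions. When members were chosen with 1 replicate number only, the GATA share was 53.1% on average, with 52.7% and 53.5% in the 2 choices. At like base composition the excess remained, with 62.8% of members and 45.2% of all distal regions among windows of 45 to 50% GC.

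GATA words were most frequent in regions that opened before the members. Of the distal regions first called at 2, 4 and 8 h they were present in 68.4%, 72.2% and 69.8%, and of those first called at 16, 24 and 48 h in 60.7%, 50.4% and 56.6%. The members of 24 h thus held them least often and the members of 16 h more often. The fall from 16 h to 24 h was also seen in choices by 1 replicate number, which gave 55.8% ± 0.729 and 49.5% ± 0.397 (SD, n = 2 each). The higher value at 2 h was not, because such choices held 53.8% ± 0.0675 at 2 h. The 3740 regions that only 1 of the replicate choices placed at 2 h held a GATA word in 39.8% of cases, near the share of all distal regions, so the contrast with 2 h holds for regions that both replicates called and not for others. The contrast with 4 h held in both, with 63.6% ± 1.12 there (SD, n = 2). With 2 values a group the smallest exact two-sided p is 0.333, the choices share regions, and these comparisons carry no p.

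In the members 22.9% of windows held 2 or more GATA words, against 32.4% of regions of 2 h, 39.9% of regions of 4 or 8 h, 22.8% of regions of 48 h and 13.3% of all distal regions. The sites were concentrated at the centres of members, with 47.9 GATA words per 100 members in the central 100 bp and 20.1 per 100 members per 100 bp at 300 to 500 bp away, a ratio of 2.38. The reordered control gave a ratio of 0.872, and for GATA regions open in all 14 libraries gave 1.05, those of 4 or 8 h 3.43 and those of 48 h 2.51, while regions of 2 h held 62.8 and 20.9 GATA words at these distances.

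HNF1 sites set the members apart from regions that opened earlier. They were present in 258 members (5.69%), against 1.06% of distal regions first called at 2 h, 1.28% at 4 or 8 h and 1.32% of all distal regions. Within the members the share was 3.10% (78 of 2517) for those first called at 16 h and 8.92% (180 of 2018) for those first called at 24 h, and it was 6.18% (366 of 5923) in regions first called at 48 h. The share in the members of 24 h was thus the highest of the 6 first time points. For first calls at 8, 16, 24 and 48 h the choices by 1 replicate number gave 1.14% ± 0.207, 2.71% ± 0.106, 8.61% ± 0.926 and 5.88% ± 0.0790 (SD, n = 2 each), and their values did not overlap between these time points. In windows of 40 to 50% GC the order was the same, with 2.47%, 4.10%, 10.6% and 7.20%.

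Closer matches to the palindrome, with at most 1 mismatch, showed the same order by first time point, with 0.596% at 16 h, 2.38% at 24 h and 0.760% at 48 h. By class the order of members and regions of 48 h was reversed. With 2 mismatches allowed, members had lain below them, at 5.69% against 6.18%. A site with at most 1 mismatch was present in 63 members (1.39%), 48 of them first called at 24 h, against 3 of 1796 regions of 2 h, 9 of 3584 of 4 or 8 h and 45 of 5923 of 48 h (0.760%). The sites lay at the centres, with 3.48 per 100 members in the central 100 bp and 0.441 per 100 members per 100 bp farther out (ratio 7.90). The ratio was 7.64 for regions of 48 h and 1.19 and 1.14 for those of 2 h and of 4 or 8 h.

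As the split by first time point implies, fewer of the members with an HNF1 site had been called by 16 h. In the 16 h libraries 33.7% and 35.7% of them were called, against 62.8% and 70.0% of the other members, and 91.1% of them were called in no library before 16 h, against 72.3% of the others. At 48 h their median score percentile was 66.8 and 68.7, against 53.9 and 55.1 for the others. Members with a GATA, SOX or FOX word also ranked higher at 48 h than those without, with 59.2 against 50.2, 62.4 against 53.1 and 60.4 against 53.7 in replicate 1. An HNF1 site occurred with a GATA word in 138 members and without one in 120. HNF1 sites were found in 5.42% of members with a GATA word and 6.03% of those without, shares that lay close together, and sites of both kinds shared bases in 12 members.

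Among the members with an HNF1 site were the regions near Foxa2 and Klf4 shown above. The Foxa2 region was called in 1 library of 16 h at percentile 11.4, at 24.8 and 48.6 at 24 h, and at 81.1 and 78.4 at 48 h, and the Klf4 region rose from 53.7 and 48.9 at 24 h to 93.4 and 95.0 at 48 h. Both therefore gained rank in both replicates between 24 and 48 h. A further member of this kind lay in an intron of Smad7, an inhibitor of TGF-beta and BMP signalling, 16.3 kb downstream of its TSS, and was already at 81.9 and 76.0 at 16 h and at 96.6 and 96.3 at 48 h.

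**Figure D3:**
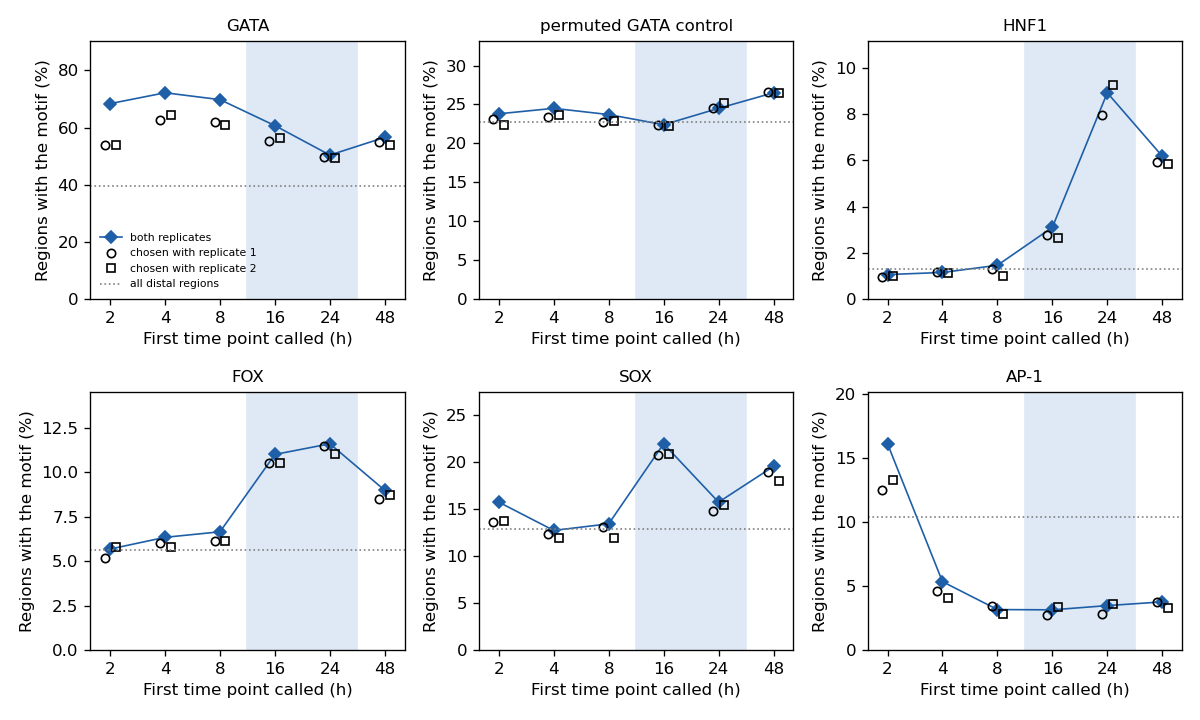
Percentage of distal regions gained at 48 h with each motif in the central 200 bp (y axis) by the first time point called in both libraries (x axis); shading marks the members. Diamonds use both replicates, circles and squares the choices by replicate 1 or 2 alone, and the dotted line is the share in all distal regions; the HNF1 share is 3.10% at 16 h and 8.92% at 24 h, against 1.06% to 1.46% at 2 to 8 h.

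Forkhead words (FOX, TGTTTAC or TATTTAC) were present in 511 members (11.3%), more often than in any other class, with 5.68% at 2 h, 6.47% at 4 or 8 h, 8.98% at 48 h and 5.64% in all distal regions. Choices by 1 replicate number gave 10.9% ± 0.190 for the members and 8.62% ± 0.144 for regions of 48 h (SD, n = 2 each). This difference is larger than the spread of the choices, but the choices share regions, so that spread is no measure of sampling error. They were present in 277 of the 2517 members of 16 h and 234 of the 2018 of 24 h (11.6%), or 10.5% ± 0.0140 and 11.3% ± 0.364 in those choices (SD, n = 2 each). The sites were central, with 7.30 per 100 members in the central 100 bp and a ratio of 2.60 over the flanks, against 1.73 for regions of 48 h and 1.08 and 1.03 for those of 2 h and of 4 or 8 h.

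SOX words (ACAATGG or ACAAAGG) were present in 867 members, and in 18.3% ± 0.519 of members chosen by 1 replicate number (SD, n = 2), against 12.9% of all distal regions. They followed another course than HNF1 sites, with 21.9% in members first called at 16 h and 15.7% in those of 24 h, and 20.7% ± 0.0600 and 15.1% ± 0.435 in the choices by 1 replicate number (SD, n = 2 each). Regions of 2, 4 and 8 h held SOX words in 15.7%, 12.7% and 13.4% of cases and regions of 48 h in 19.5%, so the share of the 24 h members equalled that of 2 h and the share of 48 h lay between the members' values. In the members of 16 h the GATA and SOX words were thus both more frequent than in those of 24 h, and HNF1 sites less frequent.

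AP-1 words (TGACTCA or TGAGTCA), bound by FOS and JUN factors, were present in 3.29% of members, close to the 4.38% of regions of 4 or 8 h and 3.76% of 48 h, and in 16.1% of regions of 2 h and 10.4% of all distal regions. KLF words (GGGTGTGG or GGGCGTGG) were present in 6.04% of members, 6.51% of regions of 2 h, 5.58% of 4 or 8 h, 2.90% of 48 h and 7.54% of all distal regions. Among the other motifs searched, octamer, TEAD, HNF4, orphan nuclear receptor, TCF/LEF, ETS, CTCF core and STAT words were counted in the same windows, and the HNF4 words CAAAGTCC and CAAAGGTC were present in 2.80% of members and 3.76% of regions of 48 h. None of the GATA, HNF1, FOX, SOX and AP-1 motifs was found in 1346 members (29.7%), against 21.3% of regions of 2 h, 23.4% of 4 or 8 h, 29.8% of 48 h, 44.4% of all distal regions and 59.0% of those open in all 14 libraries. A match in these windows is a description of letters and does not show that a factor was bound.

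A count of all hexamers, which used no motif words but the same windows and is thus not separate from the counts above, pointed to the same letters. Among hexamers present in at least 5% of members, ATTAAC, which is 1 arm of the HNF1 palindrome, had the largest excess over regions of 2 h, with 9.70% of members against 5.12% (ratio 1.89, and 1.78 and 1.72 in the choices by 1 replicate number). GTAAAC, which lies within the forkhead word, came next with 11.9% against 7.52% (ratio 1.58), followed by ACATTG with a ratio of 1.54, ACAAAC with 1.52, AAATAT in 5.78% against 3.84%, CAAACA with a ratio of 1.49, and CATTAA and TAAACA, each with 1.47. The hexamers that were rarest in members relative to regions of 2 h were GACTCA and GAGTCA, which lie within the AP-1 word, at 10.0% against 22.8% and 11.2% against 23.6%.

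**Figure D4:**
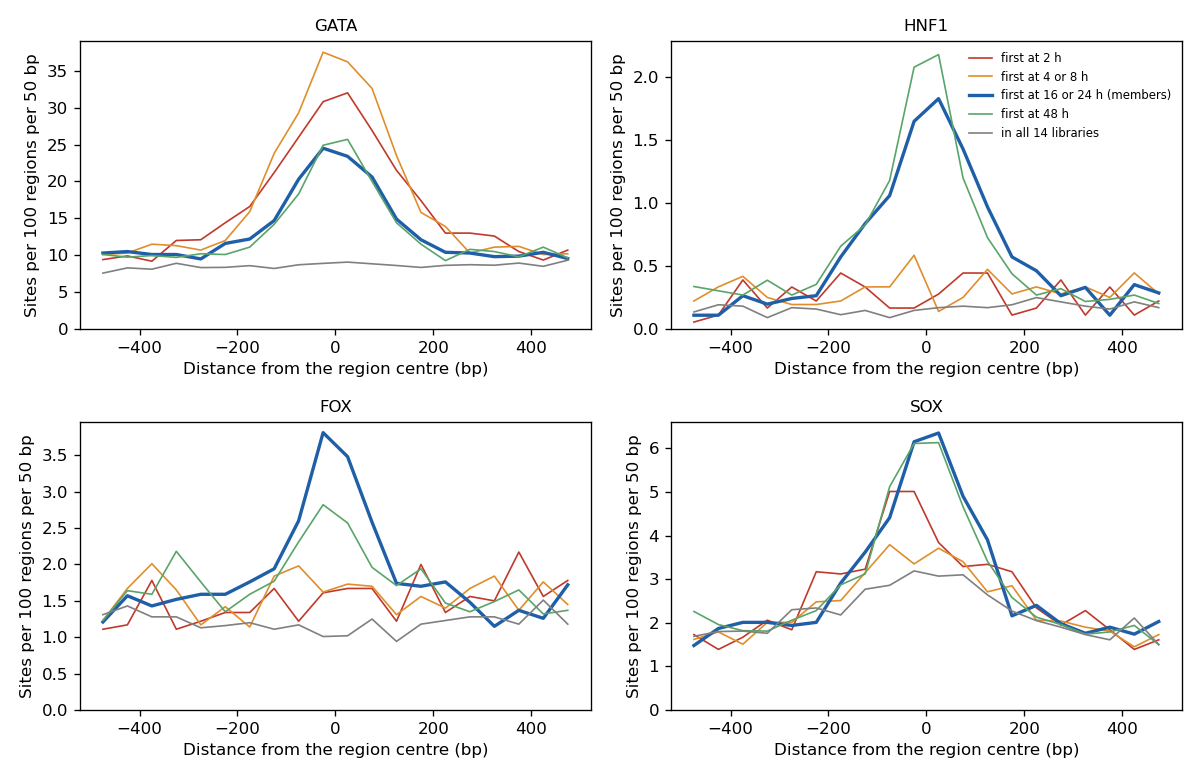
Sites per 100 regions per 50 bp (y axis) against distance from the region centre in bp (x axis) for GATA, HNF1, FOX and SOX motifs, with 1 line per class of distal region. Members (thick line) have central maxima for all 4 motifs; for HNF1 they share this with regions of 48 h, with 3.48 and 4.25 sites per 100 regions in the central 100 bp, while the earlier classes are flat.

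In base composition and position the members were ordinary distal regions. The median GC content of their windows was 49.5%, as in all distal regions, and 11.8% of their bases were repeat-masked against 13.1%. Their merged width had a median of 507 bp, between the 640 bp of regions of 2 h and the 384 bp of regions of 48 h. By midpoint 2084 members lay in introns, 190 in exons and 2261 between protein-coding genes, or 46.0%, 4.19% and 49.9%, against 46.0%, 5.66% and 48.3% of all distal regions. The median distance to a TSS was 23.3 kb, against 24.0 kb.

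Members lay nearer to regions that had opened earlier than did regions of 48 h. Of the members, 13.9% lay within 10 kb of a distal region opened by 8 h and 42.1% within 50 kb, against 10.2% and 35.2% of regions of 48 h. The choices by 1 replicate number gave 12.8% ± 0.223 and 10.6% ± 0.350 within 10 kb (SD, n = 2 each). For all distal regions the shares were 14.6% and 38.0%. These include the regions opened by 8 h themselves, so they give no background from which the members could be told apart. Members also lay nearer than regions of 48 h to distal regions open in all 14 libraries. The shares were 17.3% against 14.1% within 10 kb and 53.1% against 44.7% within 50 kb. The nearness was thus not particular to regions that had opened earlier. Most members stood alone, as 3809 (84.0%) had no other within 12500 bp end to end, and 340 groups of 2 or more held the remaining 726. The 7 groups of 4 lay near Lamb1, Ly86, Socs1, Psd4 and Pax8, Creb3l1, Foxa2, and Eomes.

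To relate the members to genes, each was assigned to the gene of the nearest TSS if that lay within 50 kb, which placed 3173 members at 2517 of 20733 genes (12.1%). Of these genes 503 had 2 or more members. Another distal region that had opened by 8 h was assigned to 891 of the genes with a member (35.4%), and 1626 had none. Of the 3154 genes with a region of 48 h, 946 (30.0%) also had a region opened by 8 h. The largest number of members was 6, at Ubash3b, which encodes a regulator of receptor tyrosine kinase and T cell receptor signalling. At this gene 1 region had opened at 2 h and 3 at 4 or 8 h. A further 6 genes had 5 members each. Among these were Creb3l1, a membrane-bound bZIP transcription factor, Lima1, an actin-binding protein, Psd4, an exchange factor of ARF6, Runx1, a transcription factor of blood formation, and Zfp36l2, a protein that promotes mRNA decay. At Lima1 and Psd4 none of the distal regions gained at 48 h had its first time point with both calls by 8 h. Regions that opened only for a time, or in 1 library, were not counted here or at the genes below. Among genes with 4 members, the first in alphabetical order were Adgra2, Akap13, Ank2, Bend5 and Celsr1.

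Members near PrE genes were described with the list of 579 PrE genes of the study, which derives from blastocyst single-cell data and not from these libraries. Of its 570 genes on the autosomes, 176 (30.9%) had a member, against 44 of 218 Epi genes (20.2%) and 12.1% of all genes. Listed genes also had more distal regions of any kind around them, with a median of 5 per PrE gene, 6 per Epi gene and 2 per gene overall. Of all distal regions assigned to PrE genes 8.00% were members, against 3.16% for Epi genes and 4.48% for all genes. Seen from the members, 8.64% of those assigned lay at PrE genes, against 4.84% of all assigned distal regions, and 1.67% lay at Epi genes, against 2.36%. Regions of other times stood close to the members in this respect, and choices by 1 replicate number gave 7.72% ± 0.169 for the members, 7.59% ± 0.157 for regions of 2 h, 7.74% ± 0.413 for 4 or 8 h and 7.11% ± 0.195 for 48 h (SD, n = 2 each).

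**Figure D5:**
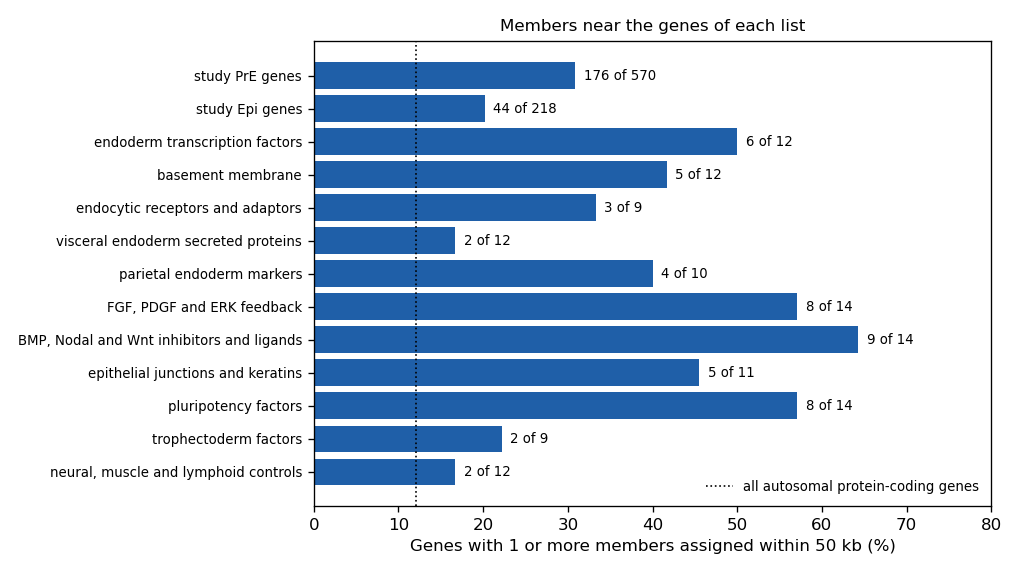
Percentage of genes of each list with 1 or more members within 50 kb of their nearest TSS (x axis), with the counts beside the bars and the share over all autosomal protein-coding genes (12.1%) as a dotted line. The highest shares are those of BMP, Nodal and Wnt genes (9 of 14), of FGF, PDGF and ERK feedback genes (8 of 14) and of pluripotency factors (8 of 14).

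Among 12 transcription factors of endoderm, 6 had a member, among them Sox17, Foxa2, Eomes and Gata6, and members made up 9.24% of the distal regions at the 12 genes. Sox17, a driver of PrE formation, had 4, and of its regions none had opened at 2 h and 2 at 4 or 8 h. Its member 41.1 kb upstream of the TSS was called at percentiles 37.0 and 46.8 at 16 h, 72.9 and 77.1 at 24 h and 92.2 and 90.8 at 48 h. The member 19.7 kb downstream rose from 5.89 and 29.6 at 16 h to 84.4 and 85.6 at 48 h, so both gained rank at each step in both replicates. Foxa2 had 2 regions opened at 2 h, 2 opened at 4 or 8 h and 2 members. At the endogenous Gata6 gene 1 member lay 29.3 kb from the TSS and was first called at 24 h, after 2 regions had opened at 4 or 8 h. The 2 members at Eomes, a T-box factor, behaved otherwise, since the one 2.25 kb from the TSS was at 36.9 and 48.1 at 16 h and at 48.0 and 36.4 at 48 h, without a common direction.

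Genes of the basement membrane, the sheet of laminin, collagen IV and nidogen that PrE cells lay down, had members at 5 of 12. These genes had a median of 13.5 distal regions each, against 2 per gene overall. Members made up 7.41% of their distal regions, against 4.48% for all genes. Col4a1, the collagen IV alpha 1 chain that shares its promoter region with Col4a2, had 4, and the one 47.9 kb away within Col4a2 was called in 1 library of 16 h at 19.6, at 57.4 and 66.8 at 24 h, and at 99.0 and 97.6 at 48 h. Lama1, the laminin alpha 1 chain, had 3 members and no gained region of 2 to 8 h, and the member 11.7 kb upstream stood at 73.0 and 75.6 at 16 h, 89.2 and 89.7 at 24 h and 94.1 and 93.0 at 48 h. Lamb1 and Hspg2 had 2 members each and Nid2 had 1. Among 9 endocytic receptors and adaptors, which serve nutrient uptake in visceral endoderm, Dab2 had 2 members and no region of any other gained class. Its intronic member was at 75.1 and 71.6 at 16 h and 97.1 and 97.6 at 48 h. Cubn, the receptor cubilin, had 2 members and Lrp1 had 1.

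The list of BMP, Nodal and Wnt genes held the highest share of genes with a member. Of 14 such genes 9 had a member, with 3 members each at Bmp6, a BMP ligand, and Id1, a target of BMP signalling, 2 at Bmp2, and 1 each at Bmper, Dkk1, Id2, Id3, Smad6 and Smad7. Of these 14 members 11 were first called at 16 h, against 55.5% of all members. No member lay at Nodal, Lefty1, Tdgf1, Cer1 or Bmp4, the other genes of this list. The member 39.2 kb from the TSS of Dkk1, a secreted Wnt inhibitor, was called in 1 library of 8 h at 30.5, at 86.9 and 86.5 at 16 h, and at 91.9 and 93.1 at 48 h. Of 14 genes of FGF, PDGF and ERK feedback 8 had 1 member each, namely Etv4, Etv5, Fgfr2, Fgfr3, Pdgfra, Pdgfrb, Spry1 and Spry4. All 8 of these members were first called at 16 h, again against 55.5% of all members, and neither difference was tested. Members made up 10.8% of the distal regions at the BMP, Nodal and Wnt genes and 4.76% at the FGF, PDGF and ERK genes, the latter close to the 4.48% of all genes. The member at Pdgfra, a receptor that marks PrE, ranked low, at 28.9 and 36.3 at 16 h and at 16.2 and 33.8 at 48 h, and it followed 2 regions opened at 2 h and 1 at 4 or 8 h.

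Most members at epithelial genes were of 24 h. Of 11 genes of junctions and keratins 5 had members, with 3 each at Cdh1, which encodes E-cadherin, Ocln, which encodes the tight junction protein occludin, and Pard6b, a polarity protein, 2 at Tjp1 and 1 at Cdh2. Of these 12 members 10 were first called at 24 h, against 44.5% of all members, and members made up 10.3% of the distal regions at these genes. At Ocln and Pard6b no gained distal region was of 2 to 8 h, whereas regions of 2 h lay at Krt19, which had 2, and at Krt8, Cdh2 and Tjp1. The member 3.69 kb from the TSS of Pard6b was called in no library of 16 h, at 58.7 and 48.3 at 24 h and at 94.5 and 93.8 at 48 h. The lists were chosen with earlier results of these data known, and a difference between lists of this size was not tested.

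Members were also found near genes of the pluripotent state. Of 14 pluripotency factors 8 had a member, with 4 at Klf4, 2 each at Esrrb, Klf5, Tbx3 and Tfcp2l1 and 1 each at Klf2, Sox2 and Zfp42. These genes had a median of 13.5 distal regions each, and 6.94% of their distal regions were members, against 4.48% for all genes. At Esrrb, an orphan nuclear receptor, the same neighbourhood held 12 distal regions called in both 0 h libraries and in neither 48 h library. Its 2 members were called in both 48 h libraries by the rule but fell in rank, from 86.3 and 88.5 at 16 h to 31.0 and 40.2 at 48 h in one and from 62.8 and 59.9 to 33.2 and 49.7 in the other. At Klf4 a member 35.5 kb from the TSS was lower at 48 h than at 16 h in both replicates and reached 5.31 in replicate 2, while the member shown above and another 10.5 kb away rose, so members of 1 gene differed in course.

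Parietal endoderm markers had members at 4 of 10 genes, with 2 each at Lamb1, Plat and Prdm1 and 1 at Snai1, and visceral endoderm secreted proteins at 2 of 12, Apoa4 and Ttr. Members made up 8.43% and 9.52% of the distal regions at these lists, the latter of few regions. Trophectoderm factors had members at 2 of 9 genes, Ascl2 and Tead4, and the control list of neural, muscle and lymphoid genes at 2 of 12, Pax6 and Sox1. The member at Ascl2 was at 52.7 and 57.5 at 16 h, 75.0 and 76.9 at 24 h and 21.1 and 4.02 at 48 h, lower at 48 h than before in both replicates.

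The members with the highest ranks throughout were those called in all 6 libraries of 16 to 48 h and in none before, ordered by their lowest percentile. The member 107 kb upstream of Tmsb10, in an exon of Dnah6, had percentiles of 95.5 and 94.8 at 16 h, 94.4 and 98.1 at 24 h and 97.4 and 95.9 at 48 h. The intergenic member 62.2 kb upstream of Cxcr4, a chemokine receptor expressed in endoderm, was at 94.1 and 96.7, 92.9 and 96.4, and 98.8 and 99.2 at these times. The others lay 353 kb upstream of Prickle1, in an intron of Pfkl, 39.5 kb upstream of Fth1 and 9.91 kb upstream of Creb3l1, and their 48 h percentiles lay between 90.5 and 99.4. Of these 6 members, 3 held a GATA word in the central 200 bp and none held an HNF1 site. All 6 were of 16 h by their selection, and of all members of 16 h 60.7% held a GATA word and 3.10% an HNF1 site. With 6 members a difference from these shares cannot be told.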

How the data were processed

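Peak lists of 14 ATAC-seq libraries were used, 1 list per library, with 2 replicates at each of 7 time points. The authors aligned reads to GRCm38 (mm10, per the labels), called peaks with the ENCODE ATAC-seq pipeline, kept those passing IDR at 0.05 between pseudoreplicates of a single library (per the file names) and removed blacklisted regions. The deposited lists give 1 score per peak, whose scale is not stated, so the authors' score was used only as a rank within its list. The read numbers tabulated by the study entered no value here, and only the order of their totals is mentioned. Lists hold no reads, so no counting interval is given. They held 55588 to 65073 peaks, or 23.0 to 31.2 Mb, and 0 of 821472 autosomal peaks ended beyond a chromosome of GRCm38.

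Peaks on autosomes were merged and classed by the stated rule, with the starts of protein-coding transcripts in GENCODE M21. This reading of the TSS was taken after the member counts under 3 readings were known (4535, 4705 and 4411). Members, motifs and gene lists were chosen with earlier results of these data known. Sequence and repeat masking were read from GRCm38. Named were the 12 genes with most members, each gene with a member on the lists other than those of the study, the 6 members ranking highest throughout, up to 2 members each from 6 lists by rank at 48 h, and the 8 hexamers with the highest ratio. Some genes and regions that these rules name are not reported here. Sex chromosomes were not analysed here. Python 3.11.15, numpy 2.4.6, pandas 2.3.3 and matplotlib 3.10.9 were used, and the scripts were tested on simulated data. Alternatives changed the peak cutoff, overlap, merging, TSS distance, window, GC range, assignment distance and replicates.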

Additional observations from a re-analysis of the deposited data

How the results depend on the processing

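The held-out difference of 65.0 points kept its direction and passed the threshold in every alternative computed for it. Each p was the smallest that its arrangements allow, and the difference shows only how far the replicates concur. It was 63.9 to 66.9 points with other peak, merging and TSS settings (exact one-sided permutation p = 3.33e-04, the smallest possible), and 56.9 points without the 0 h and 48 h libraries (exact permutation p = 0.00476). With the replicate block it was 65.0 points (exact permutation p = 8.16e-04), although the numbers did not pair the libraries, whose deviations correlated between -0.0123 and 0.00685. Leaving out a replicate gave 62.4 to 67.6 points (exact permutation p = 0.0286), 5546 to 6020 members, 52.4 to 59.8% first called at 16 h, a GATA share of 52.7 to 53.5%, an HNF1 share of 5.25 to 5.30% and 7.60 to 7.84% at PrE genes. With calls required from the first time point on and none before, 2487 members remained, with 8.48% for HNF1 and 8.93% at PrE genes, and no held-out value was computed. With the 50000 highest peaks the share of 16 h was 49.5%, GATA 54.8% and HNF1 5.39%. HNF1 was 5.32% with 50% of a region covered. GATA and HNF1 were 55.5% and 5.64% with peaks within 200 bp merged, 56.9% and 5.81% over 5 kb from a TSS (7.80% at PrE genes), and 55.2% and 5.74% with gene starts, an alternative chosen after seeing the data. They were 75.7% and 9.33% over whole regions, 36.0% and 3.07% in 100 bp windows and 65.9% and 7.11% at 40 to 50% GC. Assignment within 20 kb gave 8.32% at PrE genes. The causes of these changes were not tested. Of 44 values that left out no replicate, 23 did not move, meaning for a share by less than the SD between replicate choices, for the number of members by less than 1.5 times and for the held-out difference no loss of the threshold. Leaving out each time point in turn was not run. The libraries of 1 line without a serum control, the absence of reads from the lists and the unstated score scale limit all values.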
